A study of Arabidopsis thaliana with 16 samples.

Results

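The subject is a set of 58 Arabidopsis genes whose array signal was higher in plants kept for 48 hours in blue light than in plants kept as long in white light, each at 20 µE. The samples were total RNA of wild-type plants of the ecotype Landsberg. Each light was represented by 8 array columns. The labels name neither the organ nor the age of the plants, and they do not say whether the columns came from separate plants. Columns of neighbouring replicate number (1 with 2, 3 with 4, 5 with 6, 7 with 8) were averaged, which gave 4 samples per light, called samples 1 to 4. Every white light sample was paired with the blue light sample of the same number.

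The genes were picked by their measured values. Of 3439 features on the array, 2498 had a signal above 0 in all 16 columns. These were put on the log2 scale and quantile normalized, which gives all arrays the same distribution of values. A level therefore does not convert directly to the deposited signal of an array. Each difference is relative to the other features of the same arrays. A feature was kept if it was paired with exactly 1 gene, if its mean difference, blue minus white, was at least 1, and if the difference was above 0.5 in each of the 4 pairs. Of 491 single-gene features, 66 met both thresholds (13.4%), and 8 of them were set aside by name, which left 58. Over all 2498 features the same thresholds were met by 304 (12.2%), and in the opposite direction by 326. Because these values chose the genes, every difference between the lights below is a description and no test of it is given.

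Blue light is perceived in Arabidopsis by cryptochromes, phototropins and the ZEITLUPE family of photoreceptors. Activated cryptochromes restrain the COP1 ubiquitin ligase complex, so that light-regulated transcription factors accumulate and the expression of many nuclear genes changes, among them genes for chloroplast proteins. White light holds a blue component as well, so the comparison is between lights of different spectral composition at the same stated fluence rate. Of 26 well-known light-response genes looked for (photoreceptors, HY5, COP1, flavonoid synthesis, early light-inducible proteins and others), 0 had a feature in the platform annotation used here. The 58 genes therefore cannot be set beside the classical markers of blue light.

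Across the 58 genes the median difference was 1.59 on the log2 scale, a 3.02-fold higher signal in blue light, against a median of -0.02 over all 2498 features. The difference was at least 2 in 11 genes, from 1.5 up to 2 in 20 and under 1.5 in 27. In 23 genes it was above 1 in every pair. The same held for 141 of the 304 features that met the thresholds, so nothing particular to the 58 genes is read from it. The median level was -1.99 in white light and -0.51 in blue light. In these bulk RNA samples a change in the number of expressing cells and a change in RNA per cell cannot be told apart. The lowest blue light sample lay above the highest white light sample in 45 genes, and the groups overlapped in 13. Over all features such a separation in this direction was found for 16.1%, and nothing is read from the higher share among genes picked by this difference. A limma fit without pairing over all 2498 features called 421 higher (16.9%) and 437 lower in blue light at an adjusted p threshold of 0.05.

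**Figure D1:**
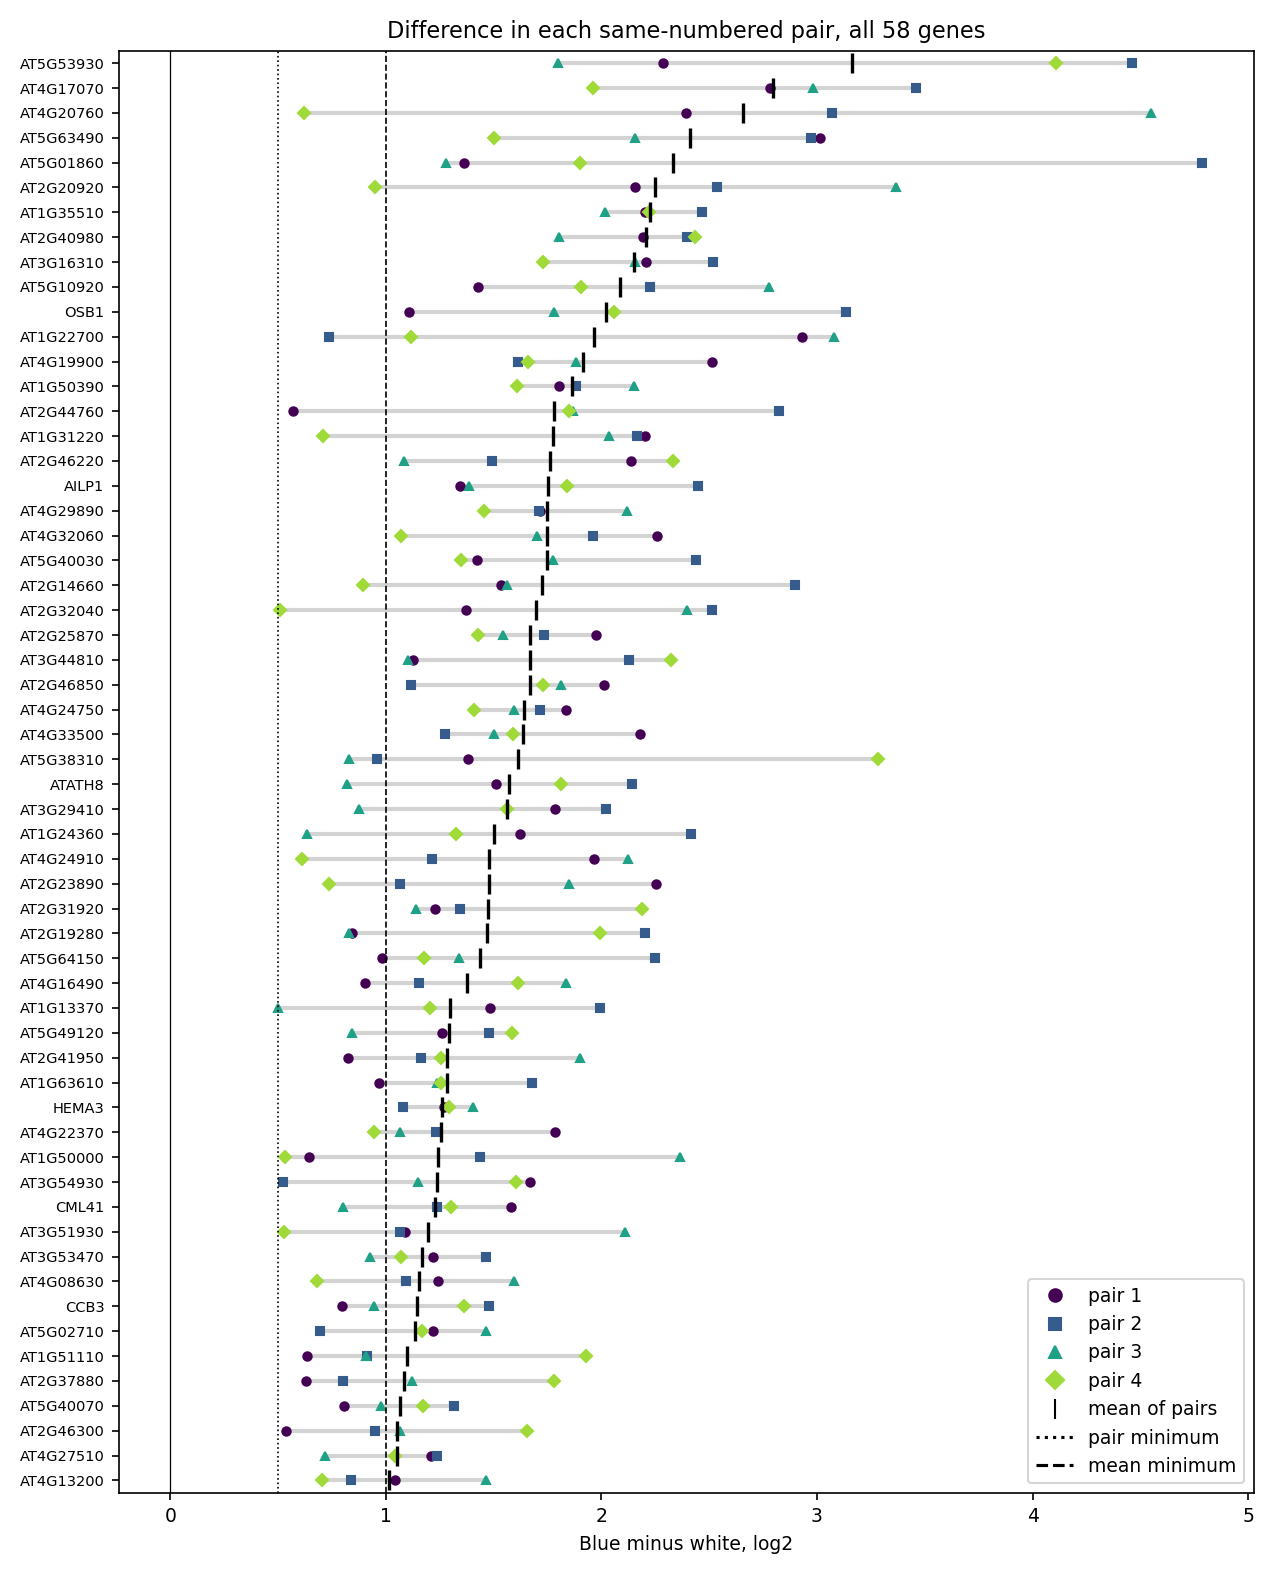
Difference between blue and white light (log2, x axis) in each of the 4 same-numbered pairs for all 58 genes, ordered by their mean; symbols are pairs, grey bars span the lowest to the highest pair, black ticks are means, and the dotted and dashed lines are the thresholds of 0.5 and 1. AT1G35510 and HEMA3 have pairs close together, while AT4G20760 runs from 0.62 to 4.55.

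The arrays differed in overall signal, which bears on every value. Total signal ran from 1044 to 3320 units in the white light columns and from 3067 to 3735 in the blue light columns, and column medians spanned 2.64 on the log2 scale. The lowest totals were those of white light sample 4, and among the blue light columns those of sample 4 were the lowest too. Without normalization the median over all 2498 features was itself shifted by 1.35 towards blue light. All 58 genes kept a positive difference under every scaling tried. Omitting a pair could not reverse a difference, because the rule kept only genes with every pair above 0.5. Depth in the sense of counts does not apply to arrays, and the number of arrays limits the precision. Without sample 4 of both lights, 55 of the 58 genes met the thresholds. Only the mean threshold could fail there, as the pairs left were above 0.5 by selection, so little is read from this count.

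By textbook knowledge of their products, 8 of the 58 genes were placed in a group of chloroplast proteins. Each gene was put in a single group, so genes of other groups, such as enzymes of metabolism, may encode chloroplast proteins too. The grouping was made by hand after the values were known, and how many of the 491 single-gene features encode such proteins was not counted. The differences of the 8 genes ran from 1.01 to 1.97 (median 1.38). They act in the assembly of the photosynthetic complexes, in tetrapyrrole, fatty acid and folate supply, in ribosomal RNA processing and in plastid lipid bodies. The highest difference among them was that of AT1G22700, which encodes a tetratricopeptide repeat protein needed for the assembly of photosystem I. Its levels were -2.91, -1.89, -2.99 and -1.12 in white light samples 1 to 4, and 0.02, -1.15, 0.09 and -0.01 in blue light. Blue light sample 2 was close to white light sample 4, so the groups overlapped slightly, and the mean difference was 1.97 (SE 0.61 over the 4 pairs).

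CCB3 belongs to the factors that attach a heme to cytochrome b6 of the cytochrome b6f complex, which links the photosystems. It was at -2.11, -2.84, -2.52 and -2.59 in white light and at -1.31, -1.36, -1.58 and -1.23 in blue light. The groups were apart, and the difference was 1.15 (SE 0.16). HEMA3 encodes a glutamyl-tRNA reductase, the enzyme of the first committed step of tetrapyrrole and thus chlorophyll and heme synthesis. HEMA3 was at -1.58, -1.05, -1.19 and -2.04 in white light and at -0.31, 0.03, 0.22 and -0.75 in blue light. Its pairs were the closest together of all 58 genes, from 1.08 to 1.40, with a mean of 1.26 (SE 0.07).

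AT1G24360, the 3-oxoacyl-ACP reductase of plastid fatty acid synthesis, differed by 1.5 (SE 0.37), and its white light samples spread from -2.79 to -1.03. AT2G32040, a folate transporter of the plastid envelope, differed by 1.70 (SE 0.47), but by only 0.51 in pair 4, and its groups overlapped. AT1G51110, a fibrillin of the plastid lipid-associated family, differed by 1.10 (SE 0.28). AT4G13200, whose product has been found in plastoglobules, the lipid droplets of thylakoids, had the lowest difference of all 58 genes, 1.01 (SE 0.17), with overlapping groups. It was 1.42 in odd-numbered and 0.60 in even-numbered columns. AT1G51110 and AT4G13200 were dim in white light, with deposited signals of 0.103 ± 0.0633 and 0.102 ± 0.0432 (SD, n = 4).

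AT2G25870 encodes the plant YbeY endoribonuclease, which matures ribosomal RNA in chloroplasts, and it was the only one of the 58 genes with a second feature paired with that gene alone. On the feature that met the thresholds it was at -2.69, -2.26, -2.40 and -1.96 in white light and at -0.71, -0.52, -0.85 and -0.54 in blue light, a difference of 1.67 (SE 0.12). On the second feature it was at -2.06, -0.57, -1.55 and -1.22 in white light and at -1.23, -0.91, -1.11 and -0.51 in blue light. There the groups overlapped, pair 2 was at -0.34, and the mean difference was 0.41 (SE 0.26). The features of this gene therefore differed in the size of the difference, and the part of the transcript that each one probes was not given in the sources used here.

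Features that list a member together with other genes gave a similar contrast. There were 6 of them, 3 with a signal above 0 in all columns. For AT1G31220 the shared feature, which lists 3 genes, differed by 0.41 (SE 0.23), against 1.78 on its own feature. For AT1G35510 it was -0.26 (SE 0.34) against 2.23, and for AT1G63610 it was -0.47 (SE 0.18) against 1.28, both lower in blue light on the shared feature. A shared feature can carry signal of the other genes it lists, so it does not measure the member alone. Together with AT2G25870, 4 genes could be read on another feature, and in 0 of these did the other feature meet the thresholds. Over all features 12.2% met them. The own features were chosen by their difference and the other features were not, so the sizes are not compared on equal terms.

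**Figure D2:**
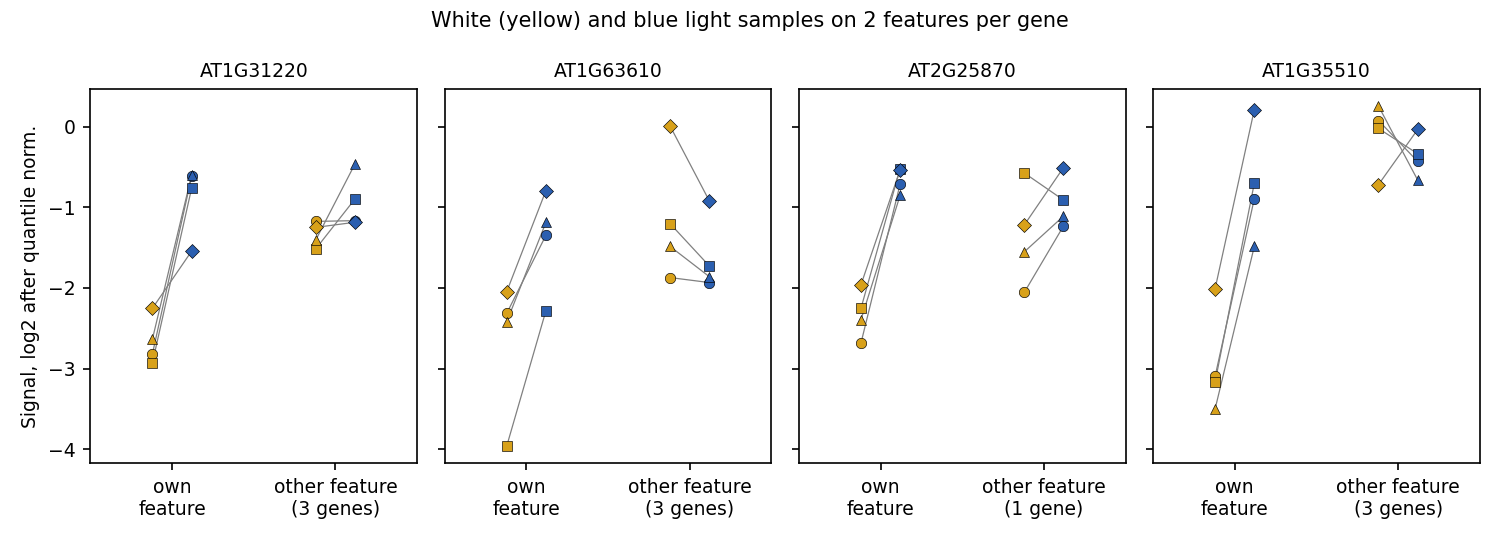
Level (log2 after quantile normalization, y axis) of the 4 genes that could be read on another feature, with white light samples in yellow and blue light samples in blue, lines joining same-numbered samples and symbols as in the plot of 19 genes. The own feature separates the lights in every pair, as the thresholds required. The other feature shows differences of 0.41, -0.47, 0.41 and -0.26 from left to right.

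Of the genes for mitochondrial proteins, OSB1 encodes a single-stranded DNA-binding protein that limits recombination of mitochondrial DNA. OSB1 was at -3.15, -4.76, -3.83 and -3.55 in white light and at -2.05, -1.63, -2.05 and -1.49 in blue light. The groups were apart, the difference was 2.02 (SE 0.42), and pair 2, with the lowest white light sample, gave the highest value, 3.13. The difference of OSB1 was 1.19 when dim values were lifted to the 10th percentile and 1.21 with a pseudocount. AT4G32060 encodes a calcium-binding regulator of mitochondrial calcium uptake. It was at 0.67, 1.25, 0.70 and 1.82 in white light and at 2.93, 3.21, 2.40 and 2.90 in blue light. Every blue light sample was above every white light sample, with a difference of 1.75 (SE 0.25) and deposited signals of 1.81 ± 0.301 in white and 8.83 ± 1.82 in blue light (SD, n = 4).

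Enzymes of primary and specialised metabolism numbered 7, with differences from 1.48 to 2.66 (median 1.78). AT5G10920 encodes argininosuccinate lyase, which carries out the last step of arginine synthesis. Its levels were 0.21, -0.49, -1.10 and -2.14 in white light and 1.64, 1.74, 1.67 and -0.23 in blue light. Sample 4 was the lowest in each light, so the groups overlapped while all pairs differed by 1.43 to 2.78 (mean 2.09, SE 0.28). AT1G31220 encodes a glycinamide ribonucleotide formyltransferase of purine synthesis and was at -2.81, -2.93, -2.63 and -2.25 in white light against -0.61, -0.76, -0.60 and -1.54 in blue light. Its difference of 1.78 (SE 0.36) was above 2 in pairs 1, 2 and 3 and 0.71 in pair 4.

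AT4G29890, annotated as a Rieske-type choline monooxygenase, was at 0.65, 0.81, 0.84 and 0.49 in white light and at 2.36, 2.52, 2.96 and 1.95 in blue light. Its samples were close together within each light, and its difference was 1.75 (SE 0.14). AT1G50390, a carbohydrate kinase of the pfkB family, was at -1.64, -2.04, -1.94 and -2.0 in white light and at 0.16, -0.16, 0.21 and -0.39 in blue light. The lights were 1.25 apart at their nearest samples, with a difference of 1.86 (SE 0.11). AT4G20760, an oxidoreductase-like protein with a Rossmann fold, was at -3.85, -4.21, -5.83 and -3.19 in white light and at -1.46, -1.14, -1.28 and -2.57 in blue light. Its mean of 2.66 (SE 0.81) came from pairs as unlike as 0.62 and 4.55, and it was 1.53 when dim values were lifted to the 10th percentile and 1.55 with a pseudocount. AT3G29410, a terpene synthase, differed by 1.56 (SE 0.25), though by 0.86 in even-numbered columns and 2.26 in odd-numbered ones. AT2G23890, a nucleotidase of the haloacid dehalogenase superfamily, differed by 1.48 (SE 0.35), or by 0.94 with a pseudocount.

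Signalling proteins numbered 7, with differences from 1.23 to 2.21 (median 1.64). Of the protein kinases, AT2G40980 was at -2.79, -2.92, -1.09 and -4.07 in white light and at -0.60, -0.53, 0.71 and -1.64 in blue light. Sample 3 was the highest and sample 4 the lowest in each light, so the groups overlapped although the pairs lay between 1.80 and 2.43 (mean 2.21, SE 0.14). AT5G40030, a kinase of the AGC class, was at 0.53, -0.86, -0.54 and -0.68 in white light and at 1.95, 1.57, 1.24 and 0.67 in blue light. Its lowest blue light sample was 0.137 above its highest white light sample, and the difference was 1.75 (SE 0.25). AT2G46850, also annotated as a kinase, differed by 1.67 (SE 0.19), and ATATH8, of the ABC1-like kinase family, by 1.57 (SE 0.28).

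Phosphatases were among the genes as well. AT4G33500, a type 2C protein phosphatase, differed by 1.64 (SE 0.19) with separate groups. AT3G54930, a regulatory B subunit of protein phosphatase 2A, differed by 1.24 (SE 0.26), and its groups overlapped, since blue light sample 2 was at -2.91 and white light sample 4 at -1.93. CML41, a calmodulin-like calcium sensor found at plasmodesmata, differed by 1.23 (SE 0.16) and had separate groups.

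Of the proteins of the nucleus, of chromatin and of protein handling there were 9, with differences from 1.07 to 2.80 (median 1.38). AT4G17070, annotated as a peptidyl-prolyl isomerase, a class of enzymes that helps proteins fold, was the brightest of all 58 genes. It was at 2.02, 1.81, 1.71 and 1.95 in white light and at 4.80, 5.27, 4.69 and 3.91 in blue light. The white light samples were close together, the nearest samples of the lights were 1.89 apart, and the difference was 2.80 (SE 0.31). With median centring its difference was 1.66. Its deposited signal was 3.47 ± 1.76 in white and 28.1 ± 8.19 in blue light (SD, n = 4).

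AT3G16310, a nucleoporin of the nuclear pore complex, was at -1.42, -1.52, -1.62 and -1.47 in white light and at 0.79, 0.99, 0.54 and 0.25 in blue light. Its samples were close within each light, and the difference was 2.15 (SE 0.16). AT5G01860, a C2H2 zinc finger protein, was at -2.40, -5.70, -2.62 and -3.28 in white light and at -1.04, -0.91, -1.34 and -1.38 in blue light. White light sample 2 was far below the others, and without pair 2 the difference went from 2.33 (SE 0.83) to 1.51. It was also 1.51 when dim values were lifted to the 10th percentile, and 1.44 with a pseudocount. AT1G13370, a histone H3 of a family with near-identical copies that a feature may not tell apart, was the nearest to the pair threshold, at 0.501 in pair 3, and its groups overlapped (mean 1.30, SE 0.31).

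The other genes of that group differed by less than 2. AT3G44810, an F-box protein of the kind that selects targets for ubiquitination, differed by 1.67 (SE 0.32). AT4G16490, an armadillo repeat protein, differed by 1.38 (SE 0.21), and AT3G51930, a WD40 repeat protein, by 1.20 (SE 0.33). AT5G49120, of the FCS-like zinc finger family, differed by 1.29 (SE 0.16), and AT5G40070, annotated as a MADS-box gene, by 1.07 (SE 0.11). AT5G40070 lies 4 protein-coding genes away from AT5G40030 on chromosome 5, and AT2G46300 lies 9 away from AT2G46220 on chromosome 2. No other members were within 10 genes of each other.

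Products grouped under cell wall and cell surface numbered 4, and where in the cell they act was not given in the sources used here. AT1G35510, of the O-fucosyltransferase family, was at -3.09, -3.17, -3.50 and -2.01 in white light and at -0.89, -0.70, -1.48 and 0.21 in blue light. Sample 4 was the highest in each light, and the pairs were close together, from 2.02 to 2.47 (mean 2.23, SE 0.09). AT4G19900, annotated as an alpha-1,4-glycosyltransferase, was at 0.26, 0.24, 0.91 and 1.85 in white light and at 2.77, 1.86, 2.79 and 3.51 in blue light. White light sample 4 and blue light sample 2 were nearly equal, and the difference was 1.92 (SE 0.21).

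AT2G46300, of the late embryogenesis abundant hydroxyproline-rich glycoprotein family, was at 0.23, 0.05, -0.30 and -3.28 in white light and at 0.77, 1.0, 0.76 and -1.62 in blue light. Sample 4 was far below the others in both lights, and blue light sample 4 was below white light samples 1, 2 and 3. Its difference was 1.05 (SE 0.23). AT4G24910, of the DUF579 family whose members include glucuronoxylan methyltransferases, differed by 1.48 (SE 0.35).

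A further 7 genes belong to named families of other kinds. AT5G63490, with CBS and PB1 domains, was at -3.42, -3.44, -3.03 and -2.38 in white light and at -0.40, -0.47, -0.87 and -0.88 in blue light. The nearest samples of the lights were 1.5 apart, and the difference was 2.41 (SE 0.36). AT2G19280, a pentatricopeptide repeat protein of the kind that binds organelle RNA, was at 0.65, -0.94, 0.54 and -0.26 in white light and at 1.49, 1.26, 1.37 and 1.73 in blue light. Its blue light samples were close together and its white light samples were not (difference 1.47, SE 0.37). AILP1, an aluminium-induced protein with YGL and LRDR motifs, differed by 1.75 (SE 0.26), AT4G24750, a rhodanese-like protein, by 1.64 (SE 0.09), and AT2G37880, related to MIZU-KUSSEI of root hydrotropism, by 1.08 (SE 0.25). The methyltransferase genes AT5G64150 and AT1G50000 differed by 1.44 (SE 0.28) and 1.24 (SE 0.42), with overlapping groups in AT1G50000. The difference of AT1G50000 was 0.72 in odd-numbered columns and 1.77 in even-numbered ones, and 0.81 with a pseudocount.

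For 14 genes no role is given here, and these include the gene with the highest difference. AT5G53930 was at -3.66, -6.10, -3.87 and -4.62 in white light and at -1.38, -1.64, -2.08 and -0.51 in blue light. The lights were apart in every pair, and the mean difference was 3.16 (SE 0.66). The signal was close to 0 in white light, 0.0427 ± 0.0217 as deposited, against 0.644 ± 0.185 in blue light (SD, n = 4). Its difference was 1.69 with a pseudocount and 1.66 when dim values were lifted to the 10th percentile, and it was 1.93 in odd-numbered columns against 4.39 in even-numbered ones, so its place as the highest is uncertain.

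AT2G20920 was at -3.09, -2.70, -3.62 and -1.59 in white light and at -0.93, -0.16, -0.25 and -0.64 in blue light, a difference of 2.25 (SE 0.50). AT2G44760 was at 0.30, -1.32, -0.86 and -1.18 in white light and at 0.87, 1.5, 1.01 and 0.67 in blue light, a difference of 1.78 (SE 0.46). White light sample 1 stood above the other white light samples in AT2G44760 and reduced pair 1 to 0.57. AT2G46220 was at 1.23, 1.58, 1.21 and 0.63 in white light and at 3.36, 3.07, 2.30 and 2.96 in blue light, a difference of 1.76 (SE 0.29), with every blue light sample above every white light sample.

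The remaining genes of this kind had differences from 1.05 to 1.72. They were AT2G14660 (1.72), AT5G38310 (1.61), AT2G31920 (1.48), AT2G41950 (1.29), AT1G63610 (1.28), AT4G22370 (1.26), AT3G53470 (1.17), AT4G08630 (1.15), AT5G02710 (1.14) and AT4G27510 (1.05). The groups overlapped in AT5G38310, AT1G63610, AT4G08630 and AT5G02710. In AT5G38310 white light sample 4 was at -3.93, and without pair 4 the difference went from 1.61 to 1.06. AT1G63610 was at 1.75 in odd-numbered and 0.82 in even-numbered columns.

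**Figure D3:**
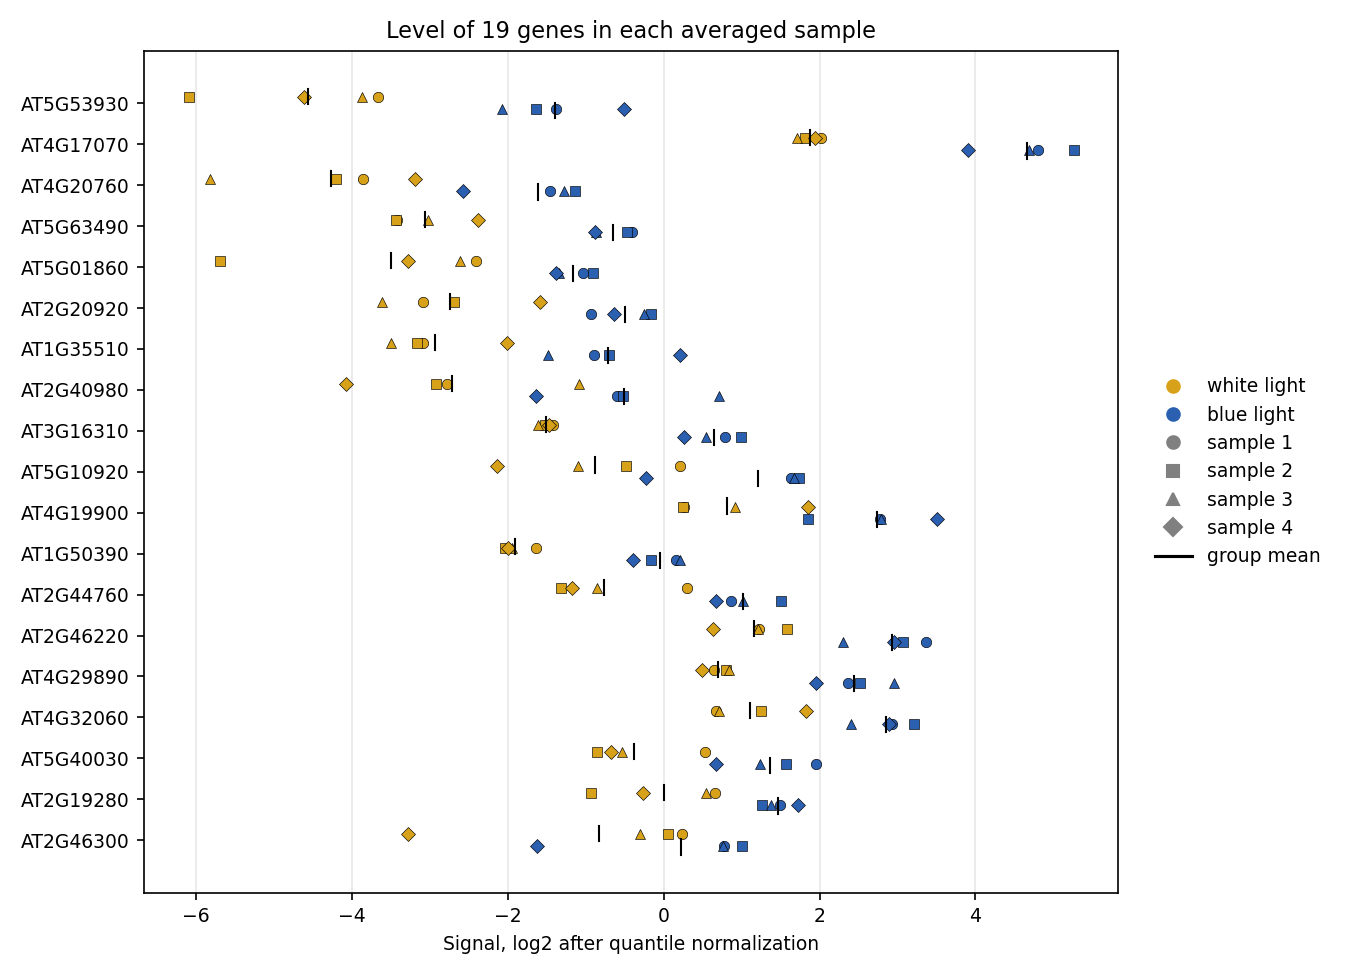
Level (log2 after quantile normalization, x axis) of 19 genes in each averaged sample, white light in yellow and blue light in blue, with the sample number as symbol and black ticks for group means; the genes are those of highest difference, highest smallest pair or highest level. AT4G17070 is the brightest, with blue light samples between 3.91 and 5.27, and AT2G46300 has sample 4 far below the rest in both lights.

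The genes included dim and bright ones. Ranked by mean level among the 2498 features, 10 of the 58 were in the lowest 25%, 15 in the next 25%, 19 in the one after that and 14 in the highest 25%. Their median level was -1.25, against -1.32 for all features. The SD between neighbouring columns had a median of 0.285 in the 58 genes and 0.239 over all features, and it exceeded 0.8 in 4 genes. Of these, AT5G53930 had the highest value, 1.79, and AT5G01860 had 0.95, AT2G40980 had 0.862 and AT3G29410 had 0.817.

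**Figure D4:**
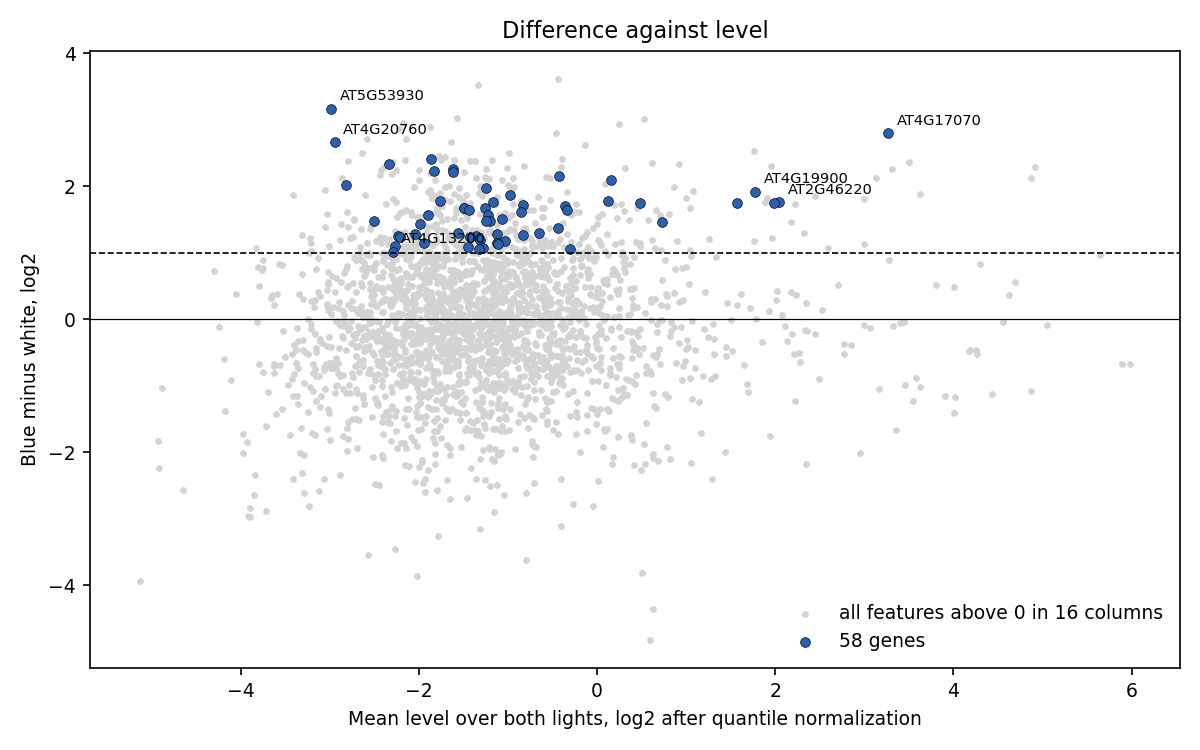
Mean difference between blue and white light (log2, y axis) against the mean level over both lights (log2 after quantile normalization, x axis) for 2498 features in grey and the 58 genes in blue; the dashed line is the threshold of 1. The 58 genes span levels from AT5G53930 at -2.98 to AT4G17070 at 3.27.

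The SD over the 4 samples was higher in white than in blue light in 39 of the 58 genes and in 58.1% of all features. The median SD over 4 samples was 0.61 in white light and 0.40 in blue light, and over all features it was 0.47 and 0.40. Sample 4 was the lowest blue light sample in 31 genes and the lowest white light sample in 23. Over all features sample 4 was the lowest in 32.1% of blue light and 33.7% of white light cases. The median difference was 1.45, 1.69, 1.55 and 1.44 in pairs 1 to 4. Every pair had to exceed 0.5 for a gene to be kept, so nothing is read from their likeness. Pair 4 gave the smallest difference in 21 genes and pair 2 the largest in 22, and the shares over all features were not counted.

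The size of the difference depended on how the arrays were scaled, and which genes moved most differed between scalings. With median centring, 5 of the 10 genes of highest level were under 1, namely AT2G46220 (0.74), AT4G29890 (0.73), AT4G32060 (0.81), AT2G19280 (0.70) and AT2G46300 (0.51). Of the other 48 genes, 2 were under 1 with that scaling, AT1G13370 (0.97) and AT5G02710 (0.96). Another 4 bright genes stayed above 1 but moved by over 1.5 times, AT4G17070 to 1.66, AT4G19900 to 1.08, AT5G40030 to 1.04 and AT2G44760 to 1.17. Scaled to total signal, all 58 genes were at 1.28 or more, and without normalization at 1.98 or more, beside shifts of 0.65 and 1.35 in the median of all features. With these 2 scalings mainly the dimmer genes moved. The difference moved by over 1.5 times in 19 genes scaled to total signal, all among the other 48. Without normalization it did so in 49 genes, and AT2G46300 was the only bright gene among them.

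**Figure D5:**
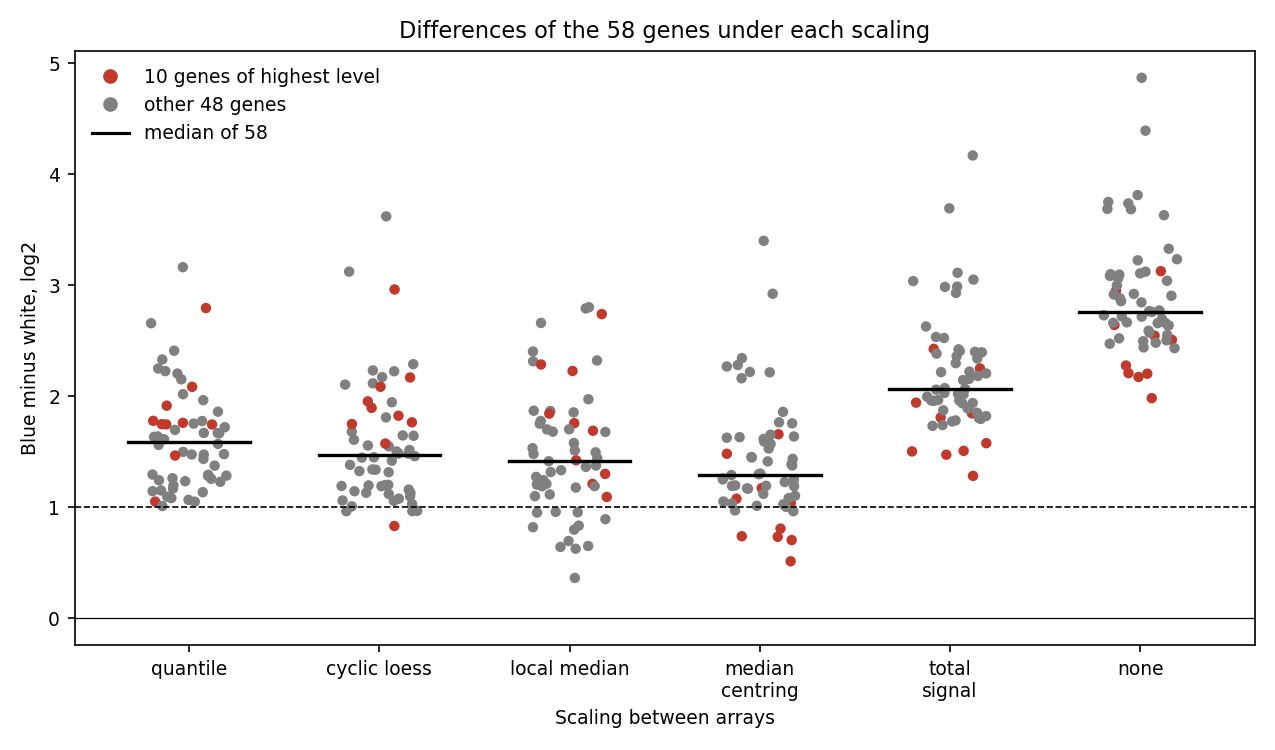
Difference between blue and white light (log2, y axis) of the 58 genes under 6 scalings between arrays (x axis), with the 10 genes of highest level in red, the other 48 in grey and the median as a black bar; points are spread sideways at random for legibility. With median centring the median is 1.29 and 5 of the red points lie under the dashed line at 1.

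The thresholds cut through a continuous range. Just inside the mean threshold were AT4G13200 (1.01), AT4G27510 (1.05) and AT2G46300 (1.05), and just outside it were AT5G52970 (0.99), AT2G27290 (0.96) and AT3G32930 (0.92). Just inside the pair threshold were AT1G13370 (0.501), AT2G32040 (0.507) and AT3G54930 (0.523), and just outside it were AT5G40470 (0.455), AT2G30320 (0.407) and AT2G31800 (0.371). A mean of at least 1 with a pair at or under 0.5 was found for 20 single-gene features. Among them AT2G30320 had a mean of 2.09.

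By chromosome, 10 of the 58 genes were on chromosome 1, 16 on chromosome 2, 7 on chromosome 3, 13 on chromosome 4 and 12 on chromosome 5. The single-gene features from which they were drawn numbered 120, 95, 88, 92 and 94. Feature numbers of the 304 features that met the thresholds lay near each other somewhat more often than those of other features. Of these 304, 57.6% had another within 5 feature numbers, and of all 2498 features 47.8% had one of the 304 within that distance. Whether the numbering reflects spot position was not given in the sources used here. The part of spot position in the differences was not tested. After subtraction of a running median over 25 consecutive features, 40 of the 58 genes met the thresholds. The difference moved by over 1.5 times in 8 genes, all downwards. AT2G37880 had the lowest value of any gene under any setting, 0.36 in place of 1.08. AT5G49120 was at 0.65, AT4G24910 at 0.80, AT4G27510 at 0.63, AT4G13200 at 0.64, AT5G02710 at 0.70, AT2G31920 at 0.95 and AT2G20920 at 1.48.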

How the data were processed

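The deposited values were linear intensity values for 3439 features in 16 columns, between 0 and 100. How the authors corrected, scaled or imaged these deposited intensities was not given in the sources used here. Their column medians differed widely. Log2 values of features above 0 in all 16 columns were quantile normalized with limma 3.58.1 in R 4.3.3, and neighbouring columns were averaged. Each of the 16 columns was closest to its neighbour, and the labels do not say what neighbours share. The fit over all features used lmFit and eBayes with Benjamini-Hochberg adjustment, tested on simulated data. Its p-values measure only the spread between these samples, which may be technical. The fit did not use the pairs, which entered only as the replicate block among the alternatives. The thresholds treated same-numbered samples as pairs, which the labels do not state. Deviations of same-numbered samples correlated at 0.40, 0.49, 0.20 and 0.41. Correlations between samples of different number were not recorded, so these values cannot show whether the pairing is right. The genes, thresholds, lists and groups were chosen with earlier results of these data known.

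Gene names came from the platform annotation, which may be out of date, and were updated through the TAIR10.1 gene table (690 of 692 single-gene features matched). Features with several genes (870) or none (1877) were not named. Values in every sample are given for 19 genes, namely those among the 10 of highest mean difference, highest smallest pair or highest level. Values of HEMA3, CCB3, AT1G22700, OSB1, AT1G31220 and AT2G25870 were added after they were seen. The gene table holds no descriptions, and the name patterns written for grouping matched 1 gene, so genes were grouped by hand from textbook knowledge of their products. Alternatives covered scaling, low values (a pseudocount of 0.0764, or raising values to the 10th percentile), single columns, thresholds, omitted samples, the replicate block and the test. The running median was added after the data were seen.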

Additional observations from a re-analysis of the deposited data

Results flagged for a closer look

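Of 116 groups of 4 samples examined (58 genes in each light), 7 had 1 sample standing far from the rest. About 5% of groups would do so by chance, so the count was near that share and nothing about the 58 genes is read from it. The share over all features, and that for sample 4, was not counted. Of the 7, 6 concern sample 4. AT5G10920 had blue light sample 4 at -0.23, with the others between 1.64 and 1.74. AT2G46300 had sample 4 at -3.28 in white light, with the others between -0.30 and 0.23, and at -1.62 in blue light, with the others between 0.76 and 1.0. AT1G31220 had blue light sample 4 at -1.54, with the others between -0.76 and -0.60. AT5G49120 had white light sample 4 at -2.91, with the others between -2.05 and -1.94. AT4G22370 had blue light sample 4 at -0.16, above the others at -0.98 to -0.90. AT1G22700 had blue light sample 2 at -1.15, with the others between -0.01 and 0.09. Sample 4 also had the lowest total signal in each light. Its columns were at 1044 units in white light and at 3096 and 3067 in blue light. The part of total signal in these values was not tested.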

How the results depend on the processing

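The count of 58 genes was between 39 and 72 with median centring, cyclic loess, the pseudocount, dim values lifted to the 10th percentile, a running median, single columns, a looser filter, looser thresholds, quantile normalization over all features or a pair omitted. It was 265 without normalization and 147 scaled to total signal, which shift all features towards blue light, 31 with a mean of at least 1.5 and 23 with each pair above 1. Of the 58, 46 met the thresholds in odd-numbered and 46 in even-numbered columns. The median difference of 1.59 was 1.29 with median centring, 2.76 without normalization, 2.06 scaled to total signal, 1.47 with cyclic loess, 1.25 with the pseudocount, 1.46 with dim values lifted to that floor and 1.42 with the running median. None of the 58 differences changed sign under these settings. Omitting a pair could not change a sign, since every pair was above 0.5 by the rule. Over all features, 421 were called higher by limma. With the replicate block 569 were higher and 563 lower, without normalization 1367 and 37 (with total signal 982 and 199, with median centring 354 and 514), and as 16 separate columns 645 and 674. Without 1 sample the higher count was 311 to 454. The exact permutation test cannot go below p = 0.0286 with 4 against 4 and made 0 calls once adjusted. Unadjusted p-values were under 0.05 for 851 features by that test and for 1105 by limma. Apart from these, the cause of each change was not tested. Signal over background was not given in the sources used here, so dim values such as those of AT5G53930 in white light have no known detection limit.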
